A study of Mus musculus with 9 samples.

Results

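Messenger RNA of 42 genes of DNA replication licensing and the replication fork was followed in 4T1 primary tumors of mice that received the FAK inhibitor BI 853520 (BI) or its vehicle. The members were listed by name from their roles in replication, with earlier results of these data known, and all 42 were found by symbol and Entrez identifier among the 18755 genes of the count table. Cells of 4T1, a metastatic line from a mammary tumor of a BALB/c mouse, were injected (1000000 per mouse) into the mammary fat pad of female BALB/c mice aged 6 to 10 weeks. The controls, 3 mice, were given 0.5% Natrosol, the vehicle, for 5 days, and the treated group, 6 mice, received 50 mg/kg BI for 5 days from day 15 after injection. The study states that it kept only tumors whose RNA was of sufficient quality. FAK is a kinase that acts at cell adhesions and in growth signaling. Each library came from whole tissue of 1 tumor, so that cancer cells, immune cells and stroma were read together, and fewer dividing cells cannot be told apart from less of a transcript per cell. Counts per tumor summed to between 21727879 and 33850245 in the vehicle group (tumors 1 to 3) and to between 16931607 and 22349873 in the BI group (tumors 4 to 9), and a member had between 114 and 7217 reads in a tumor. All 42 members passed the filter on low counts. Of the epithelial markers, Krt8 and Krt18 were abundant (CPM are counts scaled to a library of 1000000; means of 478 and 579 CPM in the vehicle group), while Epcam was at 2.13 and Cldn3 at 0.266 CPM.

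Before S phase, the origin recognition complex marks each origin, and Cdc6 and Cdt1 bring the ring-shaped MCM helicase onto the DNA there (the licensing step), which geminin (Gmnn) blocks once replication has begun. Cdc45 and the GINS complex then join the ring and turn it into the active helicase, polymerase alpha-primase lays down the starts of new strands, and polymerases delta and epsilon extend them on the sliding clamp Pcna, which the Rfc complex loads. Many of these genes are transcribed by E2F factors as cells leave quiescence and enter S phase, and their messenger RNA is widely used as a sign of proliferation in tumors.

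Because E2F factors are known regulators of many of these genes, their promoters were searched for E2F letters (TTTCCCGC, TTTGGCGC, TTTCGCGC or TTTGCCGC, on either strand, where overlapping matches count separately). RefSeq promoter windows of GRCm38.p6, from 250 bases before to 50 bases after a start, matched 34 of the 42 members. There was none for Gmnn, Mcm4, Gins1, Gins2, Gins4, Prim2, Pole and Rfc2. Of the 34 members with a window, 5 have more than 1, and a member was counted where any of its windows held the letters. The letters stood in 13 of the 34 members (38.2%), in 4.52% of the 11017 genes tested that have a window, and in 2.26% of all 32851 windows. They were found in 4 of 8 licensing members, 5 of 8 helicase members, 4 of 14 polymerase and fork members and 0 of 4 nucleotide supply members. Of the members with lower expression after BI treatment (below), 5 of 11 held the letters, and of those not called 8 of 23. The shorter box CCAAT stood in 22 of the 34 members (64.7%) and in 42.8% of the genes tested. A match describes the letters only and is not a bound site. The 180 bases before the start are printed below, with the E2F letters in capitals, for Mcm7, Mcm6 and Cdc6, the called members with the smallest p whose letters lie before the start. Mcm5, chosen after its values were seen, is shown beside them because it holds the same letters and was not called. The windows are chr5:138171884-138172063 (minus strand) for Mcm7, chr1:128359706-128359885 (minus strand) for Mcm6, chr11:98907971-98908150 (plus strand) for Cdc6 and chr8:75109329-75109508 (plus strand) for Mcm5.
Mcm7: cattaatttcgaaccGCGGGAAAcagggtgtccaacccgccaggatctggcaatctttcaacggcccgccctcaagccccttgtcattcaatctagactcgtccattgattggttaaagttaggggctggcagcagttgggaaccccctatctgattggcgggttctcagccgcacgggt
Mcm6: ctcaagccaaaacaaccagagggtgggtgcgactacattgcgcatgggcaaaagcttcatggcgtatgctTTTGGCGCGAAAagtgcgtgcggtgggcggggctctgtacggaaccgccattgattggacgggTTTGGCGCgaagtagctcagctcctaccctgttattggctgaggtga
Cdc6: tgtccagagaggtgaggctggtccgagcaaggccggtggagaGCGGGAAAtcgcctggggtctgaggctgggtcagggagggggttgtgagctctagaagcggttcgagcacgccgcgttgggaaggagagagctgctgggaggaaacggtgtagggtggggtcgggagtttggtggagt
Mcm5: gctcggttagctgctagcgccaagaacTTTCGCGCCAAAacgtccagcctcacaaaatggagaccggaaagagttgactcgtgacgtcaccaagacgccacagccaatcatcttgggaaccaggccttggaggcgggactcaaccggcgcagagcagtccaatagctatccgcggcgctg
In Mcm6 the matches begin 110, 106 and 47 bases before the start, where the matches at 110 and 106 overlap, and in Mcm5 the overlapping matches begin at 153 and 149 bases. In Mcm7 1 match begins 165 bases before the start and another at base 17 of the transcript, while the window of a second RefSeq start of Mcm7 (chr5:138171217-138171516) holds none. The only match of Cdt1 begins at base 33 of its transcript, which is not printed.

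The question of the comparison was how replication genes responded to 5 days of FAK inhibition. After BI treatment, 11 of the 42 members (26.2%) fell and none rose (edgeR's quasi-likelihood test, adjusted p ≤ 0.05 by Benjamini and Hochberg's method across every gene in the fit). Among the 13966 genes tested, 14.1% fell and 14.6% rose by the same call. The members that fell were Cdc6, Cdt1, Mcm3, Mcm6, Mcm7, Mcm10, Pola2, Prim1, Rfc1, Rpa1 and Rrm1, with log2 fold changes from -0.51 (Mcm10) to -0.21 (Rfc1). The log2 fold change was below 0 in 40 of the 42 members (95.2%, against 50.5% of all genes tested), with a median of -0.22 over the members and -0.00371 over all genes. With an unadjusted p ≤ 0.05, 20 members (47.6%) and 20.3% of all genes were lower. None of the 42 passed the study's cutoffs, an unadjusted p ≤ 0.05 with a 1.5-fold change, which 3.57% of all genes passed in the lower direction. DESeq2 called 14 members lower (33.3%, against 15.4% of all genes) and limma-voom 11 (26.2%, against 15.0%) at the same adjusted p, and neither called any member higher. Mcm3, Prim1, Rpa1 and Rrm1 each lost the call with at least 1 other scaling, filter or tool, while the other 7 kept it in all of these. Exons of 14 members overlap those of another annotated gene, and among the called members only Mcm7 is one of them.

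**Figure D1:**
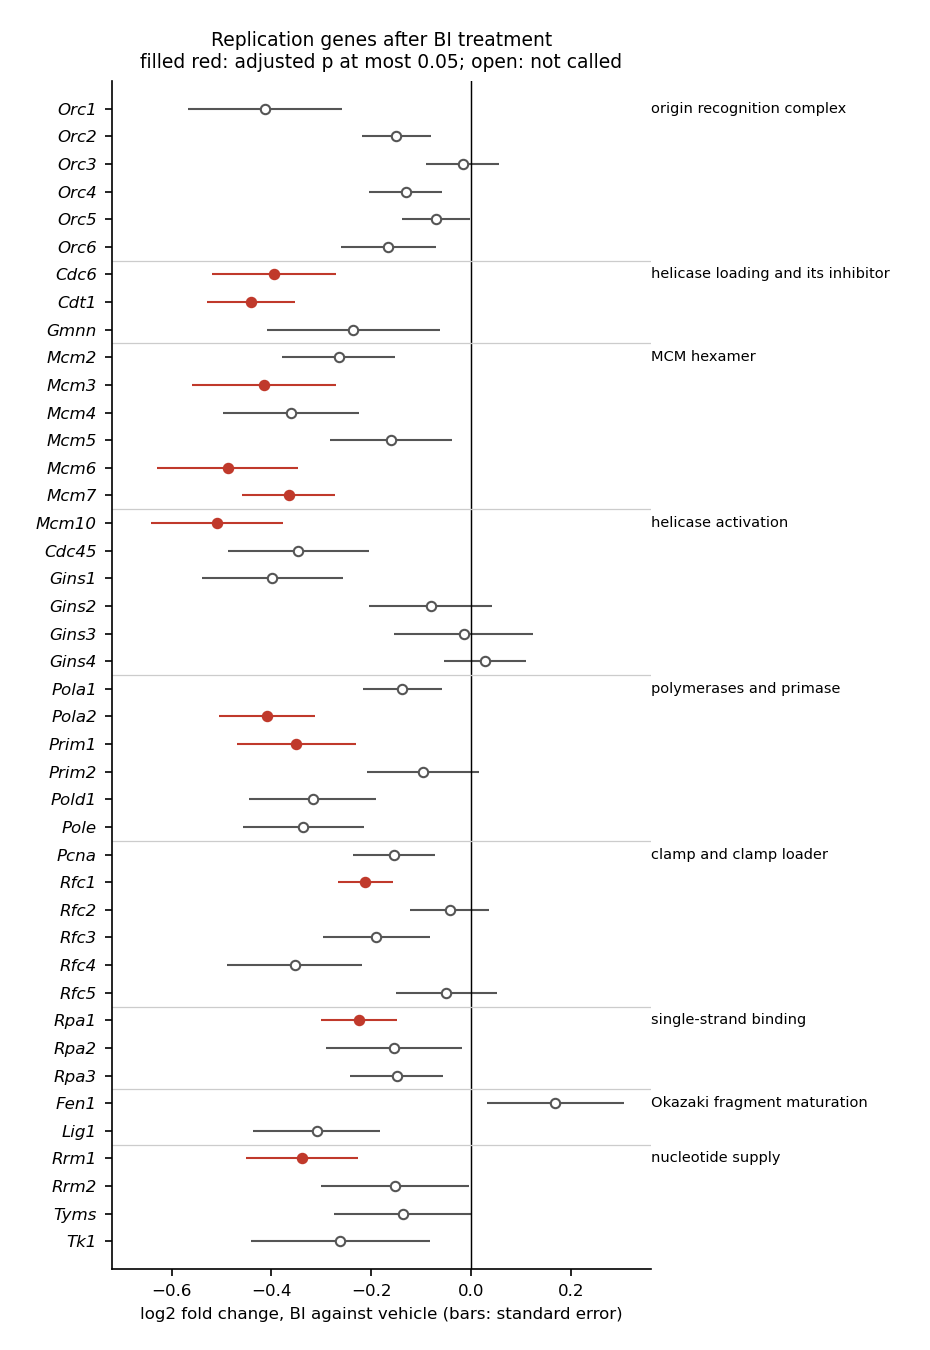
Log2 fold change of each of the 42 members (x axis, BI-treated against vehicle tumors, bars show the standard error), grouped by role along the y axis, with filled red points for the 11 members called lower (adjusted p ≤ 0.05). Of the 42 points, 40 lie left of 0, and only Gins4 and Fen1 lie right of it.

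The spread between tumors was large beside these differences. In 4 members, namely Cdt1, Mcm10, Pola2 and Rfc1, all 6 BI-treated tumors lay below all 3 vehicle tumors (9.52% of members, against 14.0% of all genes tested). BI tumor 5 held the lowest level of 31 of the 42 members (73.8%), and of 16.7% of all genes tested. Vehicle tumor 1 held the highest level of 31 members (73.8%), and of 14.7% of all genes. Taking each member relative to its vehicle mean on the log2 CPM scale, the median over the 42 members was 0.17, -0.18 and 0.02 in vehicle tumors 1 to 3. In the BI-treated tumors it was -0.23 in tumor 4, -0.57 in tumor 5, -0.31 in tumor 6, -0.186 in tumor 7, -0.0943 in tumor 8 and -0.11 in tumor 9. BI tumors 8 and 9 thus lay above vehicle tumor 2, at -0.185, and the groups overlapped. Without vehicle tumor 1, 1 member (Cdt1, 2.38%) was called lower, where 9.13% of all genes were, and without vehicle tumor 3, 3 members (Cdt1, Pola2 and Rfc1, 7.14%) were, where 8.29% of all genes were. In both fits the share of members was below that of all genes. Without BI tumor 4 or 6 the count was 7 (16.7%, against 13.3% of all genes in either fit) and without BI tumor 7 it was 6 (14.3%, against 11.5%), shares near those of all genes. Without vehicle tumor 2 it was 14 (33.3%), where 1550 of 14130 genes were called lower. Cdt1 was the only member called whichever of the 9 tumors was left out, while Pola2 and Rfc1 were called in 8 of these 9 fits and Mcm6, Mcm7 and Mcm10 in 7. Without vehicle tumor 2, 19 of the 42 members had no overlap, where 2646 of the 13966 genes tested (18.9%) had none in that direction. Without BI tumor 8 it was 10 of 42 members, with 2157 genes (15.4%), and without BI tumor 9 it was 7 of 42, with 2128 genes (15.2%).

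**Figure D2:**
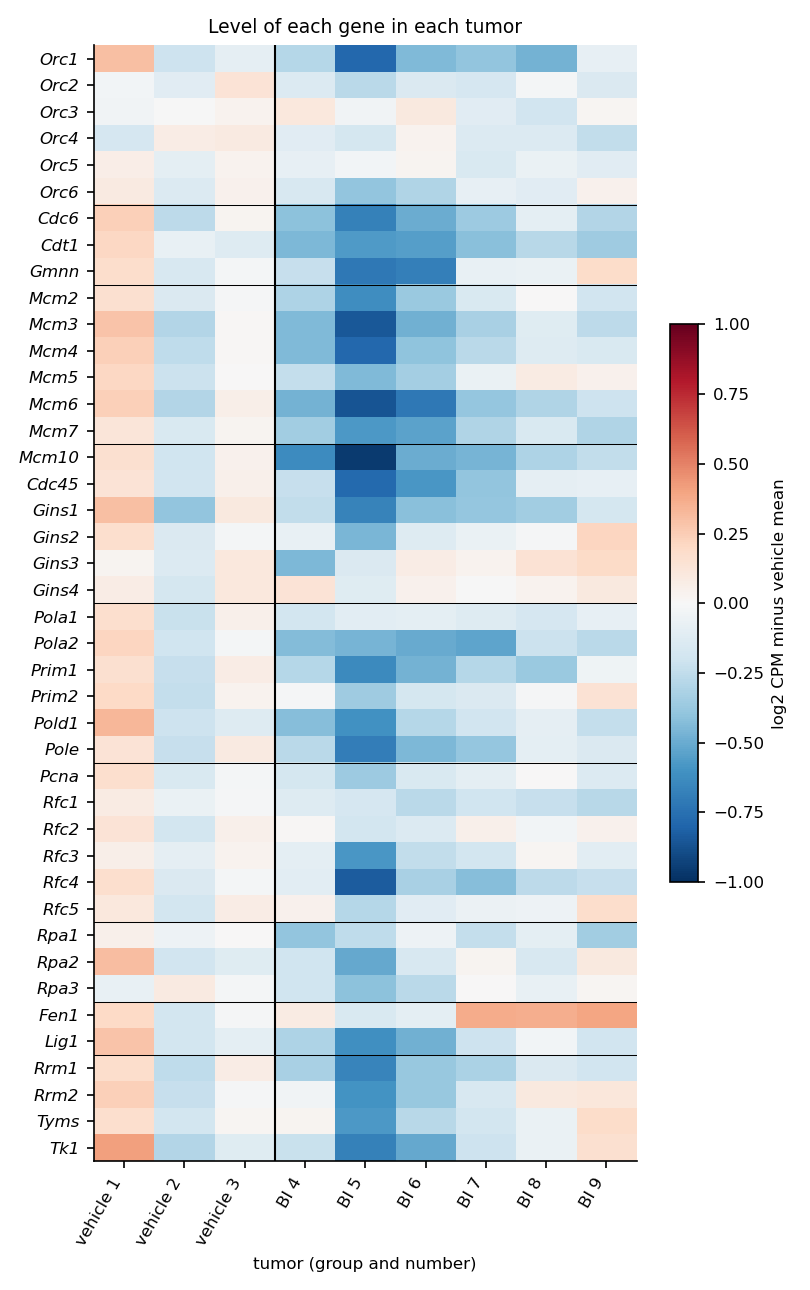
Level of each member (rows, by role) in each of the 9 tumors (columns), as log2 CPM minus the mean of the 3 vehicle tumors, with blue below and red above that mean. The column of BI tumor 5 is the bluest, with the lowest level of 31 members, and the column of vehicle tumor 1 holds the highest level of 31 members.

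Among the licensing genes, the loading factors Cdt1 and Cdc6 fell. Of the 6 genes of the origin recognition complex none was called, with a median log2 fold change of -0.14. Orc1 was at 12.7, 8.902 and 9.66 CPM in vehicle tumors 1 to 3 and between 5.94 and 9.74 CPM in the BI-treated tumors, with a median of 7.703, and its log2 fold change was -0.41 (standard error 0.153, edgeR adjusted p = 0.0625). Orc1 encodes the subunit whose level is regulated over the cell cycle, and it was below every vehicle tumor in 5 of 6 BI-treated tumors. Orc6 was at 33.9, 28.9 and 32.7 CPM in vehicle tumors 1 to 3 and between 24.2 and 32.8 CPM in the BI-treated tumors, with a median of 28.9, and its log2 fold change was -0.17 (standard error 0.0953, edgeR adjusted p = 0.213). For Orc6, BI tumors 4, 5 and 6 lay under the lowest vehicle tumor. Orc3, a core subunit, had the smallest log2 fold change of the complex, at -0.02, and those of Orc2, Orc4 and Orc5 were -0.15, -0.13 and -0.0711. Per gene length (RPKM, which divides CPM by the length of the gene in kilobases), Orc1 was at 3.46 ± 0.675 RPKM in vehicle tumors (SD, n = 3), within the spread of Gins3, the other member at the bottom of the set, and Orc2, Orc3, Orc4, Orc5 and Orc6 lay between 7.57 (Orc3) and 19.3 RPKM (Orc6). Cdt1, the factor that carries the helicase to the origin, lies on chromosome 8 from 125091915 to 125097028 of mm9. Cdt1 was at 58.5, 48.2 and 46.3 CPM in vehicle tumors 1 to 3 and between 34.2 and 41.8 CPM in the BI-treated tumors, with a median of 37.5, and its log2 fold change was -0.44 (standard error 0.0872, edgeR adjusted p = 0.00319). It had the smallest p of all members, and no BI-treated tumor reached the lowest vehicle tumor. Gmnn was at 53.3, 42.3 and 46.6 CPM in vehicle tumors 1 to 3 and between 28.8 and 53.5 CPM in the BI-treated tumors, with a median of 42.5, and its log2 fold change was -0.24 (standard error 0.173, edgeR adjusted p = 0.334). Geminin, which binds Cdt1 and prevents a second round of licensing, was above every vehicle tumor in BI tumor 9 and below them all in 3 BI-treated tumors. Cdc6, the ATPase that works with Cdt1, fell by 0.39 on the log2 scale (edgeR adjusted p = 0.0339), with 5 of 6 BI-treated tumors below every vehicle tumor. The licensing class as a whole had 2 of 9 members called lower (22.2%, against 14.1% of all genes tested).

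The helicase members held the largest falls of the set, and 4 of these 12 genes were called (33.3%, against 14.1% of all genes tested). All 6 subunits of the MCM hexamer, the ring that unwinds the DNA, had log2 fold changes below 0, with a median of -0.36, and Mcm3, Mcm6 and Mcm7 passed the test. Mcm6 was at 241, 167 and 212 CPM in vehicle tumors 1 to 3 and between 112 and 177 CPM in the BI-treated tumors, with a median of 152, and its log2 fold change was -0.49 (standard error 0.141, edgeR adjusted p = 0.0233). In 5 of 6 BI-treated tumors it lay below every vehicle tumor, and BI tumor 9 overlapped with vehicle tumor 2. Mcm7 was at 139, 115 and 130.0 CPM in vehicle tumors 1 to 3 and between 85.6 and 115 CPM in the BI-treated tumors, with a median of 102, and its log2 fold change was -0.37 (standard error 0.0926, edgeR adjusted p = 0.0122). BI tumor 8 alone overlapped with the vehicle tumors. With the exons of all GENCODE transcripts pooled, those of Mcm7 (chromosome 5, 138605811 to 138613650) overlap the microRNAs Mir93 and Mir25 on the same strand. On the other strand they overlap exons of Ap4m1 and Cops6. Whether the exons used for counting hold the microRNAs was not examined. Mcm5 had the smallest difference of the ring, -0.16 (edgeR adjusted p = 0.35), and Mcm2, Mcm3 and Mcm4 had -0.27, -0.42 and -0.36. Although the assembled ring holds each subunit once, the transcripts were not at equal levels per length. Mcm6 was the highest in all 9 tumors (71.2 ± 12.8 RPKM in vehicle and 50.8 ± 8.55 RPKM in BI-treated tumors, SD, n = 3 and 6), followed by Mcm7 in all 9, then Mcm3 and Mcm4. The lowest was Mcm5 in 7 tumors and Mcm2 in 2 (BI tumors 5 and 9), and the means of these neighbours in the order, 29.3 ± 3.100 RPKM and 27.6 ± 4.08 RPKM in vehicle tumors, differed by less than their spread.

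**Figure D3:**
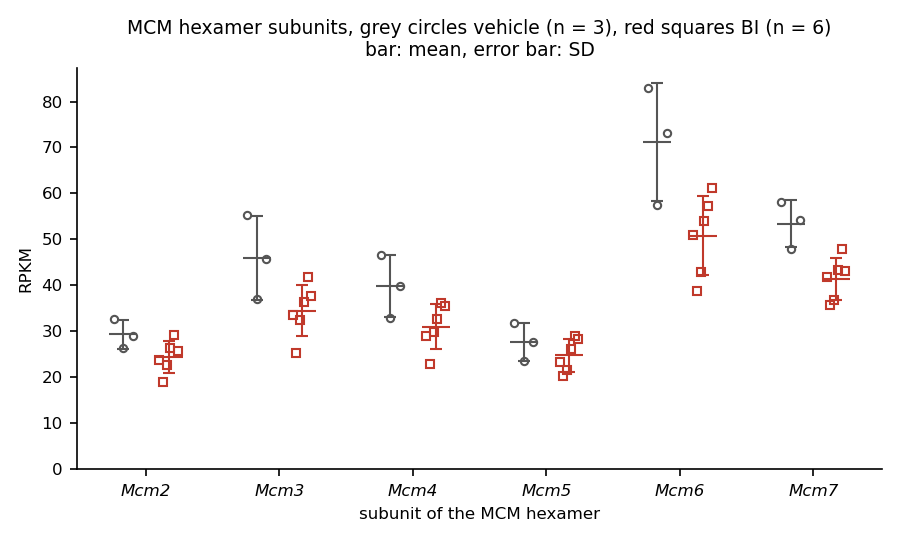
Levels per gene length (RPKM, y axis) of the 6 MCM hexamer subunits (x axis) in 3 vehicle tumors (grey circles) and 6 BI-treated tumors (red squares), with the mean and SD. The order of the subunits is nearly the same in both groups, from Mcm6 at the top to Mcm2 and Mcm5 at the bottom, and each mean is lower in the BI group.

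Among genes that turn the loaded ring into the active helicase, 1 of 6 was called (16.7%, against 14.1% of all genes tested). Mcm10, a scaffold needed to start unwinding, had the log2 fold change farthest from 0 of the 42 members. Mcm10 was at 52.8, 40.98 and 48.6 CPM in vehicle tumors 1 to 3 and between 24.2 and 39.8 CPM in the BI-treated tumors, with a median of 33.8, and its log2 fold change was -0.51 (standard error 0.132, edgeR adjusted p = 0.0138). All BI-treated tumors were below the vehicle tumors, and its mean level was 0.703 of that of the vehicle group. Gins4 was at 30.2, 25.4 and 30.9 CPM in vehicle tumors 1 to 3 and between 26.4 and 31.6 CPM in the BI-treated tumors, with a median of 29.6, and its log2 fold change was 0.03 (standard error 0.0818, edgeR adjusted p = 0.83). Gins4 (Sld5) had the highest level per length among these 6 genes, within the spread of Gins2 and Cdc45, and BI tumor 4 alone was above every vehicle tumor. The other GINS subunits had log2 fold changes of -0.40 (Gins1, edgeR adjusted p = 0.0538), -0.0809 (Gins2) and -0.0154 (Gins3), and no GINS gene passed the test. Gins3 was the least abundant of them, at 3.49 ± 0.294 RPKM in vehicle tumors against 21.2 ± 2.202 RPKM for Gins4. Cdc45, the remaining part of the active helicase, had a log2 fold change of -0.35 (edgeR adjusted p = 0.0858), with 4 of 6 BI-treated tumors below every vehicle tumor.

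Of the 17 polymerase and fork genes, 4 were called lower (23.5%, against 14.1% of all genes tested), with a median log2 fold change of -0.19. Within the polymerase alpha-primase complex, the accessory subunit Pola2 and the small primase subunit Prim1 fell. Pola2 was at 60.01, 45.2 and 51.2 CPM in vehicle tumors 1 to 3 and between 35.98 and 44.7 CPM in the BI-treated tumors, with a median of 37.9, and its log2 fold change was -0.41 (standard error 0.0958, edgeR adjusted p = 0.00831). No BI-treated tumor reached the lowest vehicle tumor, and the gene lies on chromosome 19 from 5940543 to 5964206 of mm9. Prim1 was at 44.5, 33.95 and 42.01 CPM in vehicle tumors 1 to 3 and between 25.6 and 38.7 CPM in the BI-treated tumors, with a median of 31.8, and its log2 fold change was -0.35 (standard error 0.119, edgeR adjusted p = 0.0444). Prim1 was below every vehicle tumor in all BI-treated tumors but BI tumor 9. The catalytic subunit Pola1 and the large primase subunit Prim2 had log2 fold changes of -0.14 and -0.097 (edgeR adjusted p = 0.209 and 0.549). The catalytic subunits of polymerases delta and epsilon, Pold1 and Pole, had log2 fold changes of -0.32 and -0.34 (edgeR adjusted p = 0.0809 and 0.0556), each with 4 of 6 BI-treated tumors below every vehicle tumor.

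Of the clamp and its loader, 1 of 6 genes was called (16.7%, against 14.1% of all genes tested), with a median log2 fold change of -0.17. Pcna was at 152, 122 and 134 CPM in vehicle tumors 1 to 3 and between 105 and 136 CPM in the BI-treated tumors, with a median of 122, and its log2 fold change was -0.15 (standard error 0.0828, edgeR adjusted p = 0.182). Pcna had the highest level per length of all 42 members (108 ± 12.05 RPKM in vehicle and 96.8 ± 7.83 RPKM in BI-treated tumors), and BI tumors 4 and 5 alone lay under the lowest vehicle tumor. The annotation lists the copies Pcna-ps1 and Pcna-ps2. Reads shared with them would have more than 1 alignment and be dropped. How many such reads there were was not examined, so the level of Pcna is uncertain. Rfc1 was at 121, 109 and 113 CPM in vehicle tumors 1 to 3 and between 94.2 and 105 CPM in the BI-treated tumors, with a median of 98.3, and its log2 fold change was -0.21 (standard error 0.0548, edgeR adjusted p = 0.0134). Rfc1, the large subunit of the clamp loader, was called, and its groups did not overlap. The log2 fold changes of the small subunits ranged from -0.35 (Rfc4, edgeR adjusted p = 0.0696) to -0.0428 (Rfc2), with Rfc3 and Rfc5 at -0.19 and -0.05. Of the RPA trimer, which coats single-stranded DNA, the large subunit Rpa1 fell. Rpa1 was at 165, 154 and 160.2 CPM in vehicle tumors 1 to 3 and between 121 and 154 CPM in the BI-treated tumors, with a median of 135, and its log2 fold change was -0.22 (standard error 0.0768, edgeR adjusted p = 0.0458). For Rpa1, BI tumor 6 was the only treated tumor not below every vehicle tumor. Rpa3 was at 44.7, 50.1 and 46.3 CPM in vehicle tumors 1 to 3 and between 35.3 and 47.6 CPM in the BI-treated tumors, with a median of 42.8, and its log2 fold change was -0.15 (standard error 0.0932, edgeR adjusted p = 0.254). Rpa3, the smallest subunit, had the highest level per length of the trimer (73.8 ± 4.31 RPKM in vehicle tumors), and Rpa2 was at 15.7 ± 3.07 RPKM with a log2 fold change of -0.15.

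Of the Okazaki fragment enzymes, neither was called, and their log2 fold changes had opposite signs. Lig1 was at 126, 91.2 and 96.7 CPM in vehicle tumors 1 to 3 and between 67.6 and 102 CPM in the BI-treated tumors, with a median of 86.6, and its log2 fold change was -0.31 (standard error 0.127, edgeR adjusted p = 0.0889). Lig1, the ligase that seals Okazaki fragments, was below every vehicle tumor in 5 of 6 BI-treated tumors without passing the test. Fen1 was at 33.7, 25.8 and 29.1 CPM in vehicle tumors 1 to 3 and between 26.5 and 38.6 CPM in the BI-treated tumors, with a median of 34.4, and its log2 fold change was 0.17 (standard error 0.137, edgeR adjusted p = 0.384). Fen1, the flap nuclease that trims those fragments before ligation, was above every vehicle tumor in BI tumors 7, 8 and 9 and overlapped in the others. The log2 ratio of Fen1 to Lig1 within a tumor was between -1.90 and -1.73 in vehicle and between -1.43 and -1.23 in BI-treated tumors, higher in 6 of 6. The difference of 0.47 (standard error 0.0638) had p = 0.0238, the smallest that the exact two-sided permutation test over 84 divisions of the tumors can give, and an adjusted p of 0.19 over the 8 ratios tested. Exons of Fen1, on chromosome 19 from 10273622 to 10278659, overlap those of Gm10143 and 1810006K21Rik on the other strand, and those of Lig1 overlap 6330408A02Rik. As the sources used here do not state whether counting used the strand, reads of these partners cannot be separated from those of Fen1 and Lig1, nor for Mcm7 and the other members with such overlaps.

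Among the 4 genes of nucleotide supply, 1 was called lower (25.0%, against 14.1% of all genes tested). Rrm1 was at 228, 169 and 213 CPM in vehicle tumors 1 to 3 and between 127 and 183 CPM in the BI-treated tumors, with a median of 161, and its log2 fold change was -0.34 (standard error 0.112, edgeR adjusted p = 0.0412). Rrm1 is the large subunit of ribonucleotide reductase, which makes deoxynucleotides, and 4 of 6 BI-treated tumors lay below every vehicle tumor. Rrm2 was at 169, 122 and 142 CPM in vehicle tumors 1 to 3 and between 94.6 and 155 CPM in the BI-treated tumors, with a median of 134, and its log2 fold change was -0.15 (standard error 0.148, edgeR adjusted p = 0.473). Rrm2, the small subunit that is limiting in S phase, had the highest mean level per length of the 4 genes, with BI tumors 5 and 6 below every vehicle tumor (66.2 ± 10.8 RPKM in vehicle tumors, against 50.8 ± 7.68 RPKM for Rrm1). The log2 ratio of Rrm2 to Rrm1 was higher by 0.17 (standard error 0.0676) after BI treatment, above every vehicle tumor in 5 of 6 (exact two-sided permutation test, p = 0.0952, adjusted p = 0.254 over 8 ratios). Tyms, the thymidylate synthase, and Tk1, the thymidine kinase of dividing cells, had log2 fold changes of -0.14 and -0.26 (edgeR adjusted p = 0.487 and 0.297), and both were lowest in BI tumor 5.

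The other 6 ratios compared genes with related roles, and none reached an adjusted p of 0.05. With a smallest possible p of 0.0238, a ratio could reach it only if several of the 8 ratios stood at that p, so the adjusted p could hardly separate them. The differences in log2 ratio, BI minus vehicle with their standard errors, were -0.17 ± 0.124 for Cdt1 to its inhibitor Gmnn and -0.26 ± 0.189 for Orc1 to Orc2. They were -0.22 ± 0.0831 for Prim1 to Pola1 and 0.03 ± 0.134 for Pold1 to Pole. The exact two-sided permutation p of these 4 ratios was between 0.0952 and 0.786. Against Mki67, the proliferation antigen, Mcm2 differed by 0.0391 ± 0.121 and Pcna by 0.16 ± 0.121 (exact two-sided permutation p = 0.714 and 0.238).

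**Figure D4:**
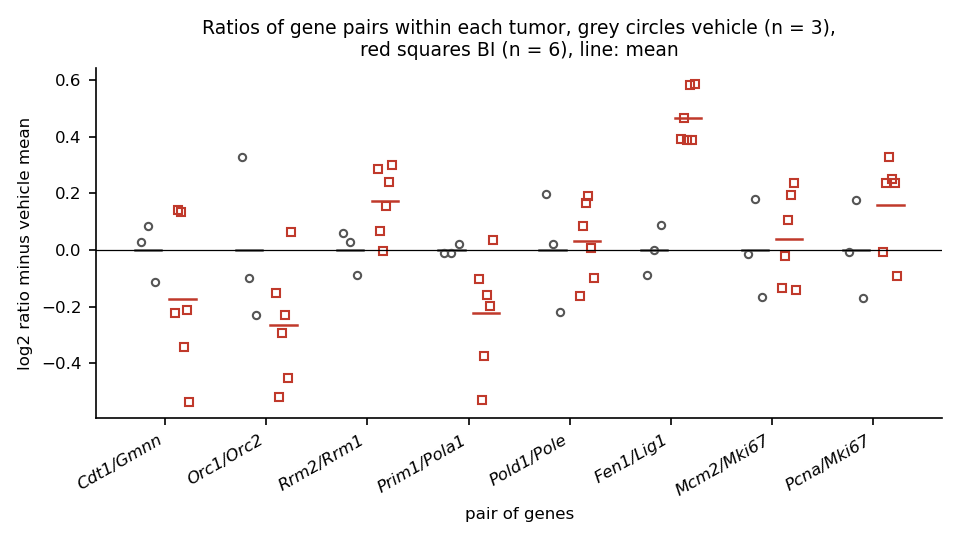
Log2 ratio of 8 gene pairs (x axis) in each tumor minus the mean of the vehicle tumors (y axis), for 3 vehicle (grey circles) and 6 BI-treated tumors (red squares) with lines at the means. The 6 BI-treated tumors lie above the vehicle tumors for Fen1 to Lig1, and the groups overlap for the other 7 ratios.

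Other genes of the pathway were read from lists set by role, beside all genes tested, of which 14.1% fell and 14.6% rose. Of 15 other licensing and origin firing genes, 6 fell and none rose (edgeR, adjusted p ≤ 0.05), with a median log2 fold change of -0.29. Ticrr (treslin), which brings Cdc45 to the ring, fell from 34.1 ± 4.38 to 22.6 ± 3.44 CPM (log2 fold change -0.60, edgeR adjusted p = 0.00493). Its partner Mtbp fell from 61.7 ± 4.94 to 44.2 ± 6.06 CPM (log2 fold change -0.48, edgeR adjusted p = 0.00638). Mcm8, a relative of the ring subunits, fell from 15.9 ± 0.621 to 12.2 ± 1.32 CPM (log2 fold change -0.38, edgeR adjusted p = 0.0137). Of 26 other fork genes, 6 fell and none rose, with a median of -0.15. Uhrf1, which guides maintenance methylation behind the fork, fell from 122 ± 15.3 to 91.4 ± 10.2 CPM (log2 fold change -0.42, edgeR adjusted p = 0.00968). The fork protein Wdhd1 fell from 44.97 ± 4.94 to 33.2 ± 4.497 CPM (log2 fold change -0.44, edgeR adjusted p = 0.0123). Pole2, an accessory subunit of polymerase epsilon, fell from 25.4 ± 2.22 to 19.2 ± 2.497 CPM (log2 fold change -0.41, edgeR adjusted p = 0.0156). 

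Of 18 other nucleotide supply genes, 8 fell and 1 rose, with a median log2 fold change of -0.23, where 14.1% of all genes fell and 14.6% rose. Paics of purine synthesis fell from 297 ± 14.5 to 223 ± 6.198 CPM (log2 fold change -0.41, edgeR adjusted p = 0.00021). Shmt1 of folate metabolism fell from 19.1 ± 2.95 to 12.6 ± 1.46 CPM (log2 fold change -0.60, edgeR adjusted p = 0.00313). The dCMP deaminase Dctd fell from 21.8 ± 1.13 to 14.04 ± 2.34 CPM (log2 fold change -0.64, edgeR adjusted p = 0.0035). The gene that rose was Samhd1, which breaks deoxynucleotides down, from 372 ± 19.3 to 446 ± 39.8 CPM (log2 fold change 0.26, edgeR adjusted p = 0.0308). Of 13 genes of E2F factors, their partners and the pocket proteins, 3 fell (Tfdp2, E2f3 and E2f7, by log2 fold changes of -0.49, -0.27 and -0.46). The pocket protein Rbl2 rose from 51.7 ± 1.51 to 62.7 ± 5.67 CPM (log2 fold change 0.28, edgeR adjusted p = 0.0204). Among 24 mitotic genes, 12 fell and none rose, with a median of -0.45, beside -0.22 for the 42 replication members. Cenpf of the kinetochore fell from 290.3 ± 39.5 to 178 ± 25.8 CPM (log2 fold change -0.70, edgeR adjusted p = 0.00124). Top2a, which untangles chromosomes, fell from 1022 ± 154 to 667 ± 90.4 CPM (log2 fold change -0.62, edgeR adjusted p = 0.00322). The kinetochore motor Cenpe fell from 163 ± 25.1 to 108 ± 17.3 CPM (log2 fold change -0.60, edgeR adjusted p = 0.00602). A test of the difference between the mitotic and replication lists was not run. Summed over the 24 mitotic genes, the level was 3325 to 4517 CPM in vehicle and 2180 to 3406 CPM in BI-treated tumors. For the 15 other licensing and firing genes it was 839 to 1052 CPM and 655 to 870 CPM. These sums overlapped between the groups, as did those of the other fork, nucleotide supply and E2F lists. Calls within the lists were not recounted with single tumors left out.

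Markers of other cell types differed between the groups as well, where 14.6% of all genes tested were higher and 14.1% lower. Of 17 immune cell markers, 10 were higher and 2 lower (edgeR, adjusted p ≤ 0.05), and their summed level was 1615 to 1793 CPM in vehicle and 1941 to 2219 CPM in BI-treated tumors. The macrophage receptor Csf1r rose from 230.0 ± 16.5 to 431 ± 39.6 CPM (log2 fold change 0.91, edgeR adjusted p = 4e-05). Adgre1 of the same list rose from 81.2 ± 7.61 to 155 ± 15.8 CPM (log2 fold change 0.93, edgeR adjusted p = 4.52e-05). The T cell receptor subunit Cd3e rose from 12.5 ± 0.444 to 27.6 ± 4.102 CPM (log2 fold change 1.14, edgeR adjusted p = 8.58e-05). The markers that fell were the neutrophil genes S100a8 and S100a9. Of 11 epithelial markers, 2 were lower (Krt18 and Krt8) and none higher, but only 5 of the 11 had a log2 fold change below 0, with a median of 0.11. The sum of the 11, most of it from Krt8 and Krt18, was 967 to 1191 CPM in vehicle and 760.0 to 968 CPM in BI-treated tumors. No listed marker was at 0 in all tumors. Within the BI group, BI tumor 5, which held the lowest level of most members, had an immune sum of 2043 and an epithelial sum of 968 CPM. Its mitotic sum of 2179.8 CPM was the lowest of the 9 tumors, while that of vehicle tumor 1 was the highest, at 4517 CPM. The part of these shifts in the levels of the replication genes was not tested.

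**Figure D5:**
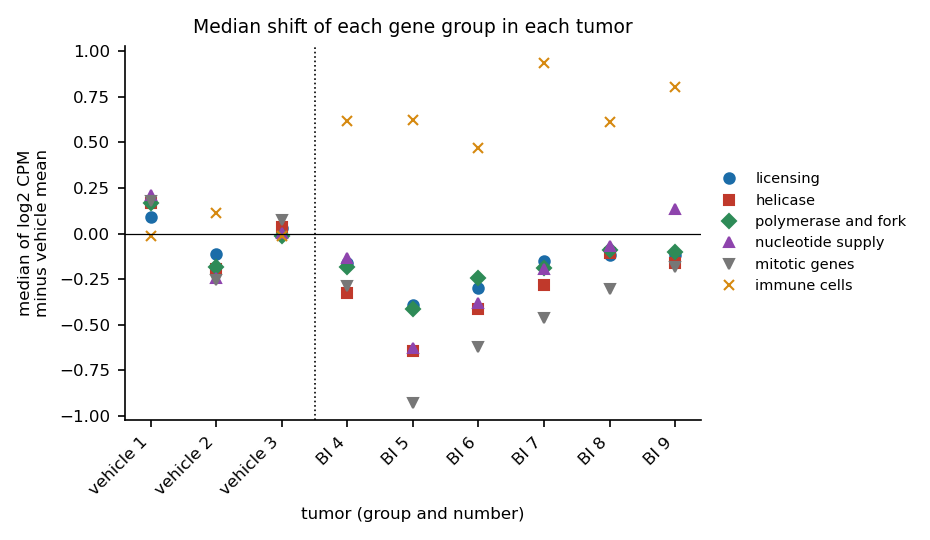
Median over the genes of each group of log2 CPM minus the vehicle mean (y axis) in each of the 9 tumors (x axis), for the 4 classes of replication genes, the mitotic genes and the immune cell markers. The replication classes and mitotic genes are lowest in BI tumor 5 (-0.64 for the helicase class and -0.93 for mitotic genes), and the median of the immune markers is above that of every vehicle tumor in all 6 BI-treated tumors.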

How the data were processed

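RNA of 9 tumors was read as stranded messenger RNA libraries sequenced from both ends. The authors aligned reads to mm9 with STAR, keeping unique alignments, and QuasR gave, per RefSeq gene, how many reads began in any of its exons. The deposited values are raw counts with a gene length per gene, and whether the strand was used is not given in the sources used here. No batch is named in the labels, and samples were grouped by their titles. Deposited gene lengths served for RPKM.

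Symbols came from RefSeq by Entrez identifier and positions on mm9 from GENCODE vM1. The 14 members whose exons overlap another gene there were Orc1, Orc2, Orc4, Orc5, Mcm7, Cdc45, Gins2, Pole, Rfc4, Rfc5, Fen1, Lig1, Tyms and Tk1. Counts were compared by edgeR 4.0.16 under R 4.3.3 (TMM scaling, filterByExpr with a minimum count of 10 and total of 15, quasi-likelihood test without covariates, Benjamini-Hochberg adjustment over 13966 genes). CPM were computed on TMM library sizes, with a prior of 2 counts before taking log2. On counts simulated for this comparison, 87.0% of genes changed 2-fold and 70.1% of those changed 1.5-fold were called among 13953 genes. All members changed by less than 1.5-fold, and changes of such sizes were not simulated. Ratios of 2 genes were compared with exact permutation tests (scipy 1.17.1). P-values cover the spread between 1 piece of each tumor, and depth set 1 count at 0.0295 to 0.0591 CPM.

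The members, gene lists and ratios were chosen with earlier results of these data known. Named genes were, for each role, the member with the highest RPKM, the smallest p and the largest and smallest fold change, and up to 3 genes of each list by p. Alternatives were RLE scaling, library sizes alone, no filter, at least 1 CPM in at least 3 tumors, DESeq2 1.42.0, limma-voom (limma 3.58.1), a prior count of 0.5 and leaving out each tumor in turn. Protein sequences were not used here.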

Additional observations from a re-analysis of the deposited data

How the results depend on the processing

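No alternative test, filter or scaling moved the number of members called lower by more than 1.5 times: it was 10 with RLE, 8 with library size alone or with at least 1 CPM in 3 tumors, 11 without a filter or with limma-voom and 14 with DESeq2 (19.0% to 33.3% of members, with 9.91% to 15.4% of all genes called), and no member changed sign under any of these. Among single members, Mcm3 lost its call under 4 of these 6 alternatives, Prim1 and Rpa1 under 2 and Rrm1 under 1, and Pole gained one under 3. When single tumors were left out, the number called lower ranged from 1 to 14 (2.38% to 33.3% of members, with 8.29% to 14.2% of all genes called). The number past the study's cutoffs ranged from 0 to 2 of the 42 members (3.14% to 3.86% of all genes). The number without overlap ranged from 4 to 19 of the 42 members (14.5% to 18.9% of all genes). The median log2 fold change of the members ranged from -0.26 to -0.17, while the number called higher stayed at 0. The log2 fold changes that changed sign when a tumor was left out ranged from -0.0431 to 0.025 for Orc3, -0.151 to 0.00563 for Gins2, -0.0798 to 0.0605 for Gins3, -0.0558 to 0.0814 for Gins4, -0.207 to 0.00498 for Prim2, -0.13 to 0.0255 for Rfc2, -0.136 to 0.00129 for Rfc5 and -0.245 to 0.0135 for Rpa2, none of them called in any of these fits. The differences in log2 ratio ranged from -0.236 to -0.0999 for Cdt1 to Gmnn, -0.378 to -0.0985 for Orc1 to Orc2, 0.13 to 0.21 for Rrm2 to Rrm1, -0.273 to -0.159 for Prim1 to Pola1, -0.0778 to 0.13 for Pold1 to Pole, 0.424 to 0.511 for Fen1 to Lig1, -0.0437 to 0.13 for Mcm2 to Mki67 and 0.0741 to 0.246 for Pcna to Mki67. With 2 vehicle tumors left, the permutation test of a ratio cannot reach 0.05, so leaving out a vehicle tumor gives no test of the ratios. The cause was not tested. No paired analysis was made, because each library came from the tumor of a different mouse and the labels name no pairs.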

Other observations

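Markers of stromal cells were read in the same tumors, where 14.6% of all genes tested were higher and 14.1% lower. The 8 fibroblast markers summed to 1991 to 3420.4 CPM in vehicle and 2638 to 5852 CPM in BI-treated tumors, with 2 of them higher (edgeR, adjusted p ≤ 0.05), among which Thy1 rose from 97.3 ± 12.4 to 139 ± 21.7 CPM (log2 fold change 0.51, edgeR adjusted p = 0.0116). The 8 endothelial markers summed to 194 to 223 CPM in vehicle and 219 to 309 CPM in BI-treated tumors, and 3 of them were higher, among which the VEGF receptor Kdr rose from 20.1 ± 1.82 to 26.2 ± 3.25 CPM (log2 fold change 0.38, edgeR adjusted p = 0.0214). Of 6 mast cell markers, 4 were higher, among which the protease Cma1 rose from 3.67 ± 1.66 to 30.8 ± 22.8 CPM (log2 fold change 3.10, edgeR adjusted p = 0.00576), 1 (Hdc, named after its values were seen) was lower, and their sum was 48.1 to 62.2 CPM in vehicle and 50.00 to 293 CPM in BI-treated tumors. The 6 adipocyte markers summed to 39.9 to 70.2 CPM in vehicle and 61.8 to 344 CPM in BI-treated tumors, and the 6 skeletal muscle markers to 6.19 to 18.9 CPM in vehicle and 5.02 to 14.7 CPM in BI-treated tumors, with none called in either list.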
